A study of Mus musculus with 16 samples.

Results

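HSCs of the 4 week MAC-1- population were compared with HSCs of the steady-state (SS) MAC-1 low population across all genes, 3 samples against 3, which are 6 of the 16 samples of the series. MAC-1 is the integrin of CD11b (*Itgam*) and CD18 (*Itgb2*). The members were taken by sample label, by state and by MAC-1 gate, and they were chosen with earlier results of these data known. The comparison asks which differences in stem cell and lineage genes are left when the sort of each state with more expression of cell cycle genes is set against its counterpart.

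All samples are given as wild-type and of the B6.SJL strain. All cells were sorted as live LSK SLAM HSCs, that is, lineage-, cKit+, Sca1+, CD48- and CD150+ cells of cKit-enriched marrow. The 4 week MAC-1- HSCs came from recipients that had been given 900 cGy of irradiation and 8000 LSK cells 4 weeks earlier. The SS MAC-1 low HSCs are labelled untreated. So the 2 groups differ in transplantation and in the MAC-1 gate at once, and these cannot be told apart between them. For this reason the other populations are given beside the main values, namely SS MAC-1- (3 samples) and, of the 4 week HSCs, MAC-1 low (4 samples) and MAC-1+ (3 samples). Nothing in the labels says that replicates came from separate mice, so every p measures only the spread between these samples. SMART-Seq amplification of few sorted cells without molecular identifiers preceded sequencing, so intervals and detection limits cover counting error only.

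HSCs renew themselves and give rise to every blood lineage, and in steady state most of them rest outside the cell cycle. Transcription factors such as *Hlf* and *Mecom*, and surface receptors such as *Procr* (EPCR), mark cells with long-term repopulating activity. Some HSCs carry transcripts of megakaryocytes and platelets, and others carry transcripts of lymphoid and myeloid progenitors. After transplantation into irradiated recipients HSCs divide to rebuild the stem cell pool, and cycling cells raise the expression of genes for replication, mitosis, ribosome assembly and respiration.

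Each gene was counted in whole reads, and levels are given in CPM, counts relative to the library total with TMM scaling, which allows for differences in composition between samples. The totals were 17132684 to 28580658 counts in 4 week MAC-1- samples and 16226999 to 18878201 in SS MAC-1 low samples (two-sided exact permutation test, p = 0.7). Mitochondrial genes took 6.81% to 9.15% of the counts in 4 week MAC-1- samples and 3.96% to 6.24% in SS MAC-1 low samples, and the 50 most abundant genes took 19.96% to 22.76% and 15.86% to 19.05% (two-sided exact permutation test, p = 0.1 for each, a value that 3 against 3 samples cannot go below). The part of this difference in the results was not tested. A gene was called at an adjusted p (Benjamini-Hochberg, over all genes tested) below 0.1 from the quasi-likelihood test of edgeR, and the counts of called genes also required an absolute log2 fold change above 1. All log2 fold changes are 4 week MAC-1- minus SS MAC-1 low.

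edgeR tested 13661 genes and called 54 of them (0.395%), 24 higher (0.176%) and 30 lower (0.22%) in 4 week MAC-1- HSCs. On the adjusted p alone 69 genes were called (0.505%), 37 higher (0.271%) and 32 lower (0.234%), and 1357 genes (9.93%) had an unadjusted p below 0.05. The lowest adjusted p among genes that rose were those of *Rap1b* and *Pf4*, and among genes that fell those of *Ifitm1* and the long noncoding RNA RP23-329A21.3. Scaling by the size factors of DESeq2 in place of TMM gave 16 higher and 31 lower genes. Members of the lists of stem cell genes were among the called genes in the lower direction only (*Hlf*, *Procr*, *Kit*, *Pdzk1ip1* and *Ifitm1*). So were the called members of the myeloid, lymphoid and MHC lists, *Spi1*, *Ltb*, *Fcer1g* and *Cd74*. The median log2 fold change over all genes tested was −0.0705. Over 5 populations the genes varied strongly between replicates, with a common biological coefficient of variation of 1.13, and 8 of the 54 genes kept their call whichever of the 16 samples was left out: *Pf4*, *Rap1b*, *Hist1h2bc*, *Tmsb4x*, *Ifitm1*, *Ccl4*, *Pdzk1ip1* and RP23-329A21.3. Of the 54 calls, 10, 12 and 22 were still made when replicate 1, 2 or 3 of 4 week MAC-1- was left out, and 17, 21 and 21 when replicate 1, 2 or 3 of SS MAC-1 low was left out.

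**Figure D1:**
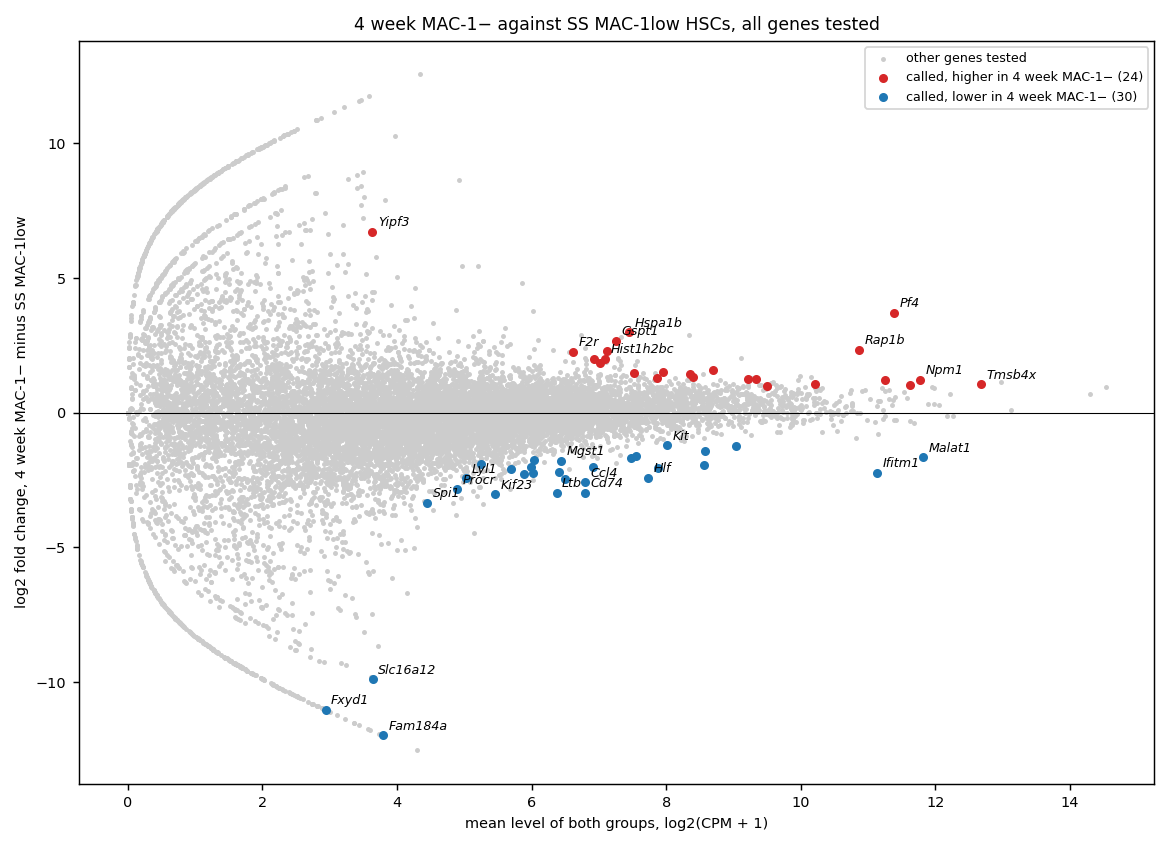
Log2 fold change of each of the 13661 genes tested (4 week MAC-1- minus SS MAC-1 low) against its mean level in both groups as log2(CPM + 1). Red points are the 24 genes called higher and blue points the 30 called lower in 4 week MAC-1- HSCs, with some of them named. Genes of low level scatter over many log2 units without being called.

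The promoters of 4 called genes are shown because they carried the lowest p among the HSC and megakaryocytic/erythroid genes. They are RefSeq windows on GRCm38.p6 from 250 bases before to 50 bases after the start site, read 5′ to 3′ on the strand of the gene. The windows are chr5:90772185-90772484 (plus strand) for *Pf4*, chr7:140967826-140968125 (plus strand) for *Ifitm1*, chr4:115088458-115088757 (plus strand) for *Pdzk1ip1* and chr11:90390868-90391167 (minus strand) for *Hlf*. Capitals mark letters of GATA sites (AGATAA or TGATAA) and ETS sites (CAGGAA or CCGGAA), searched on both strands.
Pf4: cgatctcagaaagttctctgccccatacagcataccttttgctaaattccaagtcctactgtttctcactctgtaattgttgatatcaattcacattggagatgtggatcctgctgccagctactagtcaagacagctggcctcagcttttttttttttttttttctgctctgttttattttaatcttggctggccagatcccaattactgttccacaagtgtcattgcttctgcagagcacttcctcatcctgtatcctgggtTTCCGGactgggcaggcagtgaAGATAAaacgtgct
Ifitm1: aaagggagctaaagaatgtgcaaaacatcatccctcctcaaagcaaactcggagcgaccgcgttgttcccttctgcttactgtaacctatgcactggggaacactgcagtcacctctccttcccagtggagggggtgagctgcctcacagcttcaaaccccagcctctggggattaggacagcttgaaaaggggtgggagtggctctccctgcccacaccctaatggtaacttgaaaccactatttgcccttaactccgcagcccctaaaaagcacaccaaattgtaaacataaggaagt
Pdzk1ip1: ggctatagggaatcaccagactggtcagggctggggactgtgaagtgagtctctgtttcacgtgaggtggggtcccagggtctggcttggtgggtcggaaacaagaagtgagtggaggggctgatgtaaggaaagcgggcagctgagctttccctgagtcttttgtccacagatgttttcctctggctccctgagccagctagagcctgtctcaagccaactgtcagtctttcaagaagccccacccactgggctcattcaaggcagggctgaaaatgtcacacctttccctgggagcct
Hlf: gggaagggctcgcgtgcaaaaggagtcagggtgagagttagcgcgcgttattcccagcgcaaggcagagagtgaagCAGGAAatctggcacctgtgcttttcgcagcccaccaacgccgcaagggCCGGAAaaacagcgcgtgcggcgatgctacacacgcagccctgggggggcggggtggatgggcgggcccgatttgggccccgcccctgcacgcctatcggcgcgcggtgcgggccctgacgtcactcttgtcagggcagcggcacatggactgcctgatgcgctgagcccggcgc
The *Pf4* window held AGATAA from 36 to 41 bases past the start site and CCGGAA on the other strand (printed as TTCCGG) from 14 to 19 bases past it, and the *Hlf* window held CAGGAA and CCGGAA starting 174 and 125 bases before the start site. The windows of *Ifitm1* and *Pdzk1ip1* held neither. Among all 32851 RefSeq windows, 18.6% held the GATA letters and 41.4% the ETS letters. A match is a description of the letters and not evidence of binding.

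Of the 12 HSC signature genes named by the study, all were tested, 0 were called higher and 3 were called lower in 4 week MAC-1- HSCs (*Hlf*, *Procr* and *Kit*), against 0.234% of all genes. The study chose this list on these samples, so it is not independent evidence of a direction. The median log2 fold change of the 12 was −0.804. In 10 of the 12 (83.3%) all 4 week MAC-1- samples lay below all SS MAC-1 low samples, against 8.1% of all genes tested. The summed level of the list was 1140 to 1280 CPM in 4 week MAC-1- and 2250 to 2600 CPM in SS MAC-1 low samples. In bulk RNA, fewer cells that express a gene and less RNA per cell cannot be told apart.

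*Hlf* (ENSMUSG00000003949, GRCm38 chromosome 11, 90336536 to 90390895), a transcription factor that maintains HSCs, had 57.0, 87.2 and 56.7 CPM in 4 week MAC-1- and 538, 237 and 291 CPM in SS MAC-1 low samples. The groups did not overlap, and SS MAC-1 low replicate 1 was the highest. The log2 fold change was −2.41 ± 0.43 (SE; edgeR adjusted p = 0.0360). *Procr* (ENSMUSG00000027611, chromosome 2, 155751117 to 155755471), the endothelial protein C receptor by which HSCs are often sorted, had 5.59, 6.97 and 8.51 CPM in 4 week MAC-1- and 30.4, 64.3 and 55.9 CPM in SS MAC-1 low samples. Each SS sample thus held more than each transplanted sample (log2 fold change −2.84 ± 0.64 SE, edgeR adjusted p = 0.0977). *Kit* (ENSMUSG00000005672, chromosome 5, 75574916 to 75656722), the receptor for stem cell factor, had 133, 215 and 120 CPM in 4 week MAC-1- and 295, 430 and 350 CPM in SS MAC-1 low samples. Both populations were gated as cKit+, and their transcript levels did not overlap (log2 fold change −1.20 ± 0.27 SE, edgeR adjusted p = 0.0896). Without 4 week MAC-1- replicate 1 the edgeR adjusted p of the 3 genes was 0.267 for *Hlf*, 0.419 for *Procr* and 0.401 for *Kit*, and their calls were lost in 4, 13 and 12 of the 16 fits that left out 1 sample.

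The remaining 9 HSC signature genes did not pass the test. *Fgd5*, a marker of HSCs, had 0.753, 7.96 and 1.69 CPM in 4 week MAC-1- and 9.13, 28.2 and 32.1 CPM in SS MAC-1 low samples (log2 fold change −2.73 ± 0.93 SE, edgeR adjusted p = 0.348). *Mecom*, a transcription factor of long-term HSCs, had 63.1, 67.2 and 82.5 against 102, 137 and 123 CPM (log2 fold change −0.76, edgeR adjusted p = 0.437). *Ly6a*, which encodes the SCA1 of the sort, *Uba7*, *Mllt3* and *Nupr1* had log2 fold changes from −0.84 to −0.52, with edgeR adjusted p from 0.279 to 0.552, and each was without overlap. *Socs2* had 97.8, 79.7 and 76.4 against 29.3, 106 and 116 CPM, and its groups overlapped, as did those of *Glipr1l1*.

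Outside the study's own list, 2 of 34 other HSC genes were called, both lower, against 0.234% of all genes, and the median of the 34 was 0.0231. *Ifitm1* (ENSMUSG00000025491, chromosome 7, 140967221 to 140969825), which encodes a transmembrane protein of the interferon-induced family, had 689, 983 and 707 CPM in 4 week MAC-1- and 4051, 3122 and 3922 CPM in SS MAC-1 low samples. The replicates were tight in both groups, and the log2 fold change was −2.22 ± 0.18 (SE; edgeR adjusted p = 4.42e-05). *Pdzk1ip1* (ENSMUSG00000028716, chromosome 4, 115088708 to 115093899), a membrane protein gene expressed in HSCs, had 173, 225 and 228 against 602, 482 and 584 CPM (log2 fold change −1.41 ± 0.21 SE, edgeR adjusted p = 0.00998). The 34 genes were split evenly by sign, 17 positive and 17 negative. Of the genes behind the sort, *Slamf1* (CD150) had 68.6, 74.0 and 71.1 against 2.45, 59.7 and 25.4 CPM. *Cd48*, for which cells were gated negative, had 71.7, 89.9 and 133 CPM in 4 week MAC-1- and 42.2, 28.8 and 0 CPM in SS MAC-1 low samples (log2 fold change 2.06 ± 1.82 SE, edgeR adjusted p = 0.815).

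**Figure D2:**
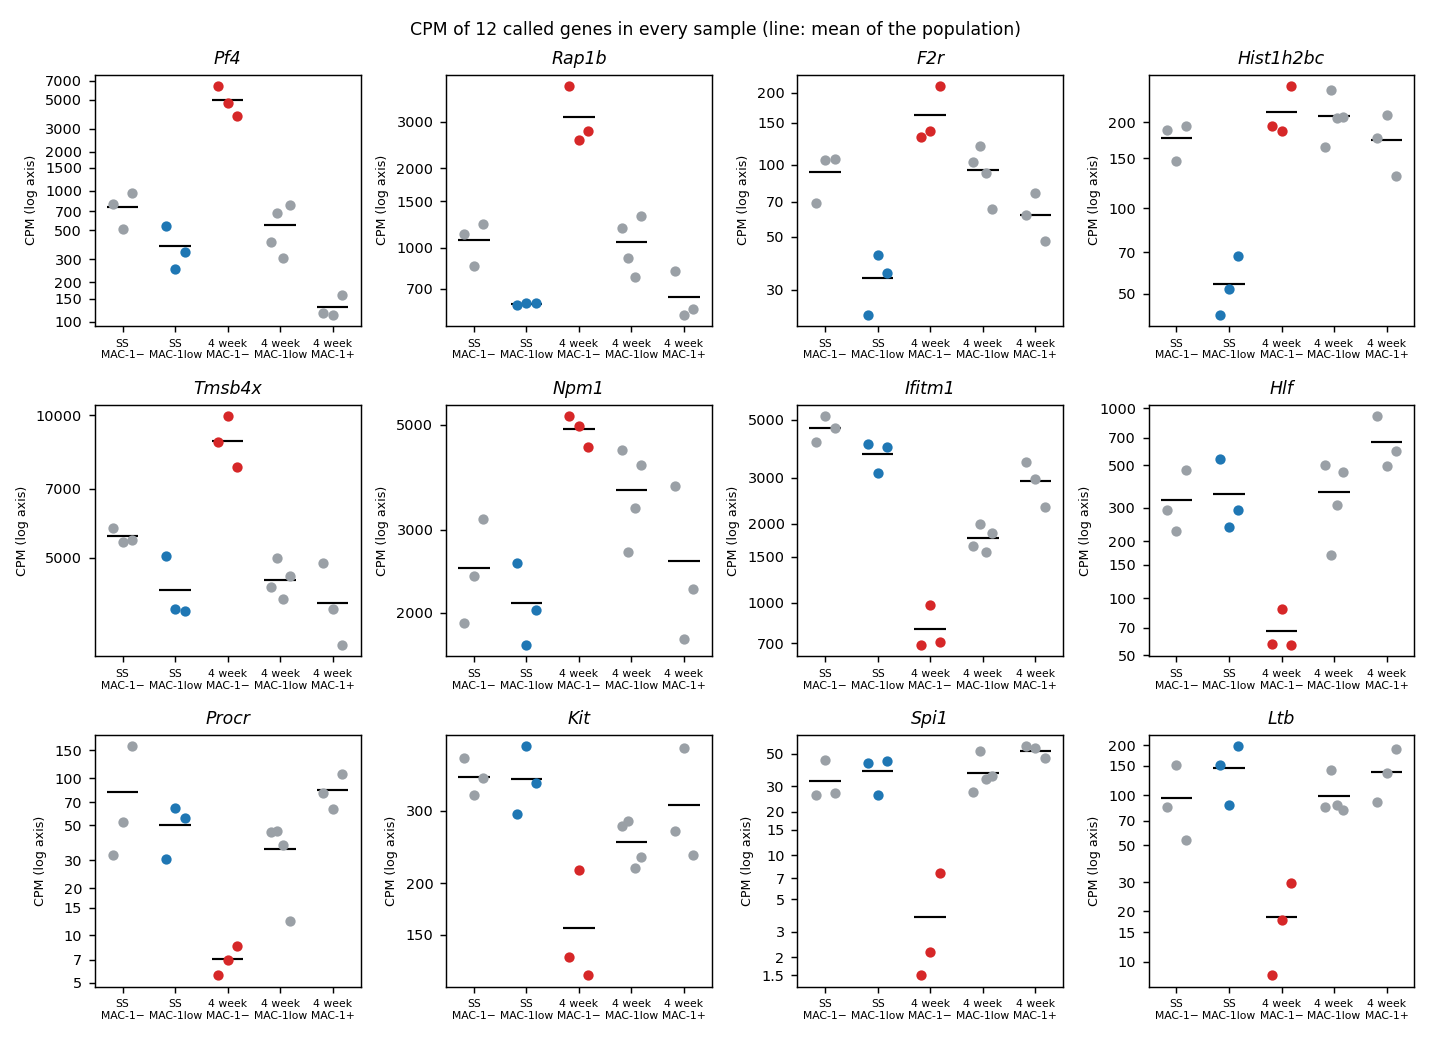
CPM of 12 called genes in every sample (points, logarithmic axes) with the mean of each population (line). Red points are 4 week MAC-1- and blue points SS MAC-1 low samples, and grey points are the 3 other populations. *Hlf*, *Procr*, *Spi1* and *Ltb* were lowest in the 4 week MAC-1- samples, whereas *F2r* and *Hist1h2bc* were lowest in the SS MAC-1 low samples.

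Of the 8 megakaryocytic/erythroid genes named by the study, 1 was called, *Pf4*, and it rose, while 0.271% of all genes were called higher. The study picked these 8, too, from the same samples. All 8 had a positive log2 fold change with a median of 1.83, and in 6 the 4 week MAC-1- samples lay above every SS MAC-1 low sample (75%, against 9.57% of all genes). *Pf4* (ENSMUSG00000029373, chromosome 5, 90772435 to 90773383), the platelet factor stored in alpha granules, had 6366, 4728 and 3776 CPM in 4 week MAC-1- and 544, 251 and 340 CPM in SS MAC-1 low samples. It took most of the summed level of the list, which was 4330 to 6680 against 371 to 752 CPM. Its log2 fold change was 3.71 ± 0.40 (SE; edgeR adjusted p = 5.72e-04).

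The other 7 did not pass the test. *Vwf*, von Willebrand factor, had 83.2, 101 and 116 against 38.8, 26.6 and 22.1 CPM (log2 fold change 1.78 ± 0.62 SE, edgeR adjusted p = 0.375). *Itga2b*, the platelet integrin CD41, had 46.0, 59.9 and 55.5 against 20.3, 25.9 and 21.9 CPM (log2 fold change 1.24 ± 0.65 SE, edgeR adjusted p = 0.546). *Gata1*, the transcription factor of both lineages, had 26.2, 50.8 and 41.7 CPM against 34.5, 0.448 and 2.63 CPM, so SS MAC-1 low replicate 1 alone reached the level of the transplanted samples. *Klf1*, the erythroid Krüppel-like factor, had 527 counts over all 4 week MAC-1- samples together and 0 over all SS MAC-1 low samples. Against the limit of 3 counts per library it was at least 52.3-fold higher, with an edgeR adjusted p of 0.435. *Mfsd2b*, *Gp9* and *Gfi1b* had log2 fold changes of 1.89, 2.20 and 0.97, with edgeR adjusted p from 0.669 to 0.75.

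Over all genes tested, 0.505% were called on the adjusted p alone and 9.93% had an unadjusted p below 0.05. In a wider list of 27 megakaryocyte and platelet genes, 23 were tested and 0 were called by edgeR, with 7 at an unadjusted p below 0.05. Their median log2 fold change was 1.46, with 16 positive and 7 negative. On the higher side 12 (52.2%, against 9.57% of all genes) were without overlap, and on the lower side 2 (8.7%, against 8.1%). The summed level was 2400 to 2690 CPM in 4 week MAC-1- and 1430 to 1570 CPM in SS MAC-1 low samples. *Cd9*, a tetraspanin of platelets and of megakaryocyte-primed HSCs, had 487, 433 and 766 against 281, 279 and 245 CPM (log2 fold change 1.07 ± 0.32 SE, edgeR adjusted p = 0.268). The 2 without overlap on the lower side were *Nfe2* and *Gng11*, named here after their values were seen. *Nfe2*, a transcription factor of megakaryocyte maturation, had 79.7, 118 and 140 against 207, 195 and 277 CPM (log2 fold change −1.01 ± 0.40 SE, edgeR adjusted p = 0.448). *Gng11*, a G protein subunit gene, had 282, 314 and 235 against 396, 352 and 355 CPM (log2 fold change −0.41 ± 0.29 SE, edgeR adjusted p = 0.701). In the list of erythroid genes 19 of 30 were tested and 0 were called, with 2 at an unadjusted p below 0.05 and a median of 0.143. The summed levels overlapped (2100 to 2410 against 2190 to 3030 CPM). *Car2* took most of these sums, with means of 1844 CPM in 4 week MAC-1- and 2220 CPM in SS MAC-1 low samples.

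Of the called genes that stand in none of the lists, 4 that rose are given here, picked after their values were seen. *Rap1b* (ENSMUSG00000052681, chromosome 10, 117813871 to 117846035), a small GTPase that switches on integrins, had 4091, 2546 and 2758 CPM in 4 week MAC-1- and 607, 619 and 618 CPM in SS MAC-1 low samples. The SS replicates were nearly equal, and the log2 fold change was 2.35 ± 0.24 (SE; edgeR adjusted p = 4.47e-04). *F2r*, the thrombin receptor PAR1, had 130, 139 and 214 against 23.6, 42.0 and 35.2 CPM (log2 fold change 2.26 ± 0.36 SE, edgeR adjusted p = 0.0174). *Rgs18*, a regulator of G protein signaling, had 4321, 3751 and 4544 against 2250, 1826 and 2144 CPM (log2 fold change 1.02 ± 0.18 SE, edgeR adjusted p = 0.0346). *Tmsb4x*, which encodes the actin-binding thymosin beta 4, had 8797, 9966 and 7789 against 5053, 3900 and 3851 CPM (log2 fold change 1.05 ± 0.15 SE, edgeR adjusted p = 0.00699). *F2r* missed the threshold without SS MAC-1 low replicate 1 (edgeR adjusted p = 0.102), and *Rgs18* lost its call in 5 of the fits that left out 1 of the 6 samples, with 0.2 without SS MAC-1 low replicate 2.

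The lymphoid/myeloid list holds 8 genes. They are those that the study's text names, with its Ets taken as *Ets1*, and *Ikzf2*, which that text does not name. Of the 8, 1 was called, *Spi1*, and it fell. The study chose its genes on these samples as well. The median log2 fold change of the 8 was −1.25. On the lower side 4 (50%), among them *Ikzf2*, were without overlap, against 8.1% of all genes. On the adjusted p alone 0.234% of all genes were called lower. *Spi1* (ENSMUSG00000002111, chromosome 2, 91082390 to 91115756) encodes PU.1, the ETS factor of myeloid and B cell fates. It had 1.51, 2.16 and 7.61 CPM in 4 week MAC-1- and 43.5, 25.8 and 44.5 CPM in SS MAC-1 low samples (log2 fold change −3.33 ± 0.64 SE, edgeR adjusted p = 0.0515). Every other population held it at about the SS MAC-1 low level, with means of 32.6 CPM in SS MAC-1- HSCs and, at 4 weeks, 37.2 CPM in MAC-1 low and 52.5 CPM in MAC-1+ HSCs. *Gfi1*, a repressor in myeloid and lymphoid progenitors, had 0.565, 0 and 4.95 against 19.1, 42.1 and 11.5 CPM (log2 fold change −3.72 ± 1.83 SE, edgeR adjusted p = 0.531). *Flt3*, the cytokine receptor of lymphoid-primed progenitors, had 1.76, 2.16 and 4.83 against 8.92, 8.05 and 8.46 CPM (edgeR adjusted p = 0.736), and *Ikzf2* had 65.0, 52.9 and 88.0 against 141, 158 and 102 CPM (edgeR adjusted p = 0.328). The groups of *Cd86*, *Ikzf1*, *Notch2* and *Ets1* overlapped.

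Wider lists gave 1 call each, both lower, while 0.234% of all genes were called lower. Of 22 lymphoid genes 15 were tested, and *Ltb* alone was called, with a median of −1.02 over the list. *Ltb* (ENSMUSG00000024399, chromosome 17, 35194439 to 35196320), which encodes lymphotoxin beta, had 8.29, 17.9 and 29.6 CPM in 4 week MAC-1- and 151, 87.8 and 197 CPM in SS MAC-1 low samples (log2 fold change −2.96 ± 0.53 SE, edgeR adjusted p = 0.0356). *Mef2c*, a factor of lymphoid specification, lay in the other direction with 544, 396 and 384 against 165, 252 and 157 CPM (log2 fold change 1.21 ± 0.34 SE, edgeR adjusted p = 0.218), so that the summed levels of the list overlapped (933 to 1240 against 1080 to 1220 CPM). Of 22 myeloid genes 16 were tested, and *Fcer1g*, the signaling chain of Fc receptors, alone was called. It had 32.1, 34.7 and 15.7 against 200, 172 and 80.4 CPM (log2 fold change −2.45 ± 0.48 SE, edgeR adjusted p = 0.0571), and the list had a median of −0.939, or −0.687 with genes at 0 in a group set to their bound.

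Of 12 genes of the MHC, 11 were tested and 1 was called lower, against 0.234% of all genes. This was *Cd74* (ENSMUSG00000024610, chromosome 18, 60803848 to 60812652), the invariant chain of MHC class II, with 9.73, 13.6 and 51.6 against 336, 105 and 146 CPM (log2 fold change −2.97 ± 0.58 SE, edgeR adjusted p = 0.0561). Class I gene *H2-K1* had 831, 1033 and 858 against 1348, 1021 and 1196 CPM, with overlap. *Cd27* (log2 fold change −2.28), a receptor of the TNF receptor family on lymphocytes and early progenitors, *Lst1* (−2.04), a leukocyte gene, and the chemokine *Ccl4* (−2.58) were called lower too (edgeR adjusted p = 0.0640, 0.0230 and 0.00578). *Ccl4* had 34.3, 32.1 and 28.6 CPM in 4 week MAC-1- and 286, 108 and 172 CPM in SS MAC-1 low samples. *Lyl1*, a helix-loop-helix factor of HSCs and lymphoid progenitors, had 13.6, 11.6 and 4.47 against 54.6, 64.9 and 39.9 CPM (log2 fold change −2.43 ± 0.50 SE, edgeR adjusted p = 0.0640). *Cd27* and *Lyl1* overlap genes on the other strand (*Vamp1* and *Nfix*), and without a stated strand setting their reads cannot be told apart. Other called genes with such an overlap are *Orc4*, *Usmg5*, *Uqcrb*, *Gspt1*, *Oxct1*, *Adss*, *Malat1*, *Shcbp1* and *Slc16a12*. Leaving out 1 sample ended the calls of *Spi1* (in 4 of 16 fits), *Ltb* (3), *Fcer1g* (5), *Cd74* (3), *Cd27* (6), *Lst1* (1) and *Lyl1* (6). The edgeR adjusted p rose to 0.272 for *Spi1*, *Fcer1g*, *Cd74* and *Cd27* without 4 week MAC-1- replicate 1, and to 0.173, 0.104 and 0.209 for *Ltb*, *Lst1* and *Lyl1* without 4 week MAC-1- replicate 2.

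**Figure D3:**
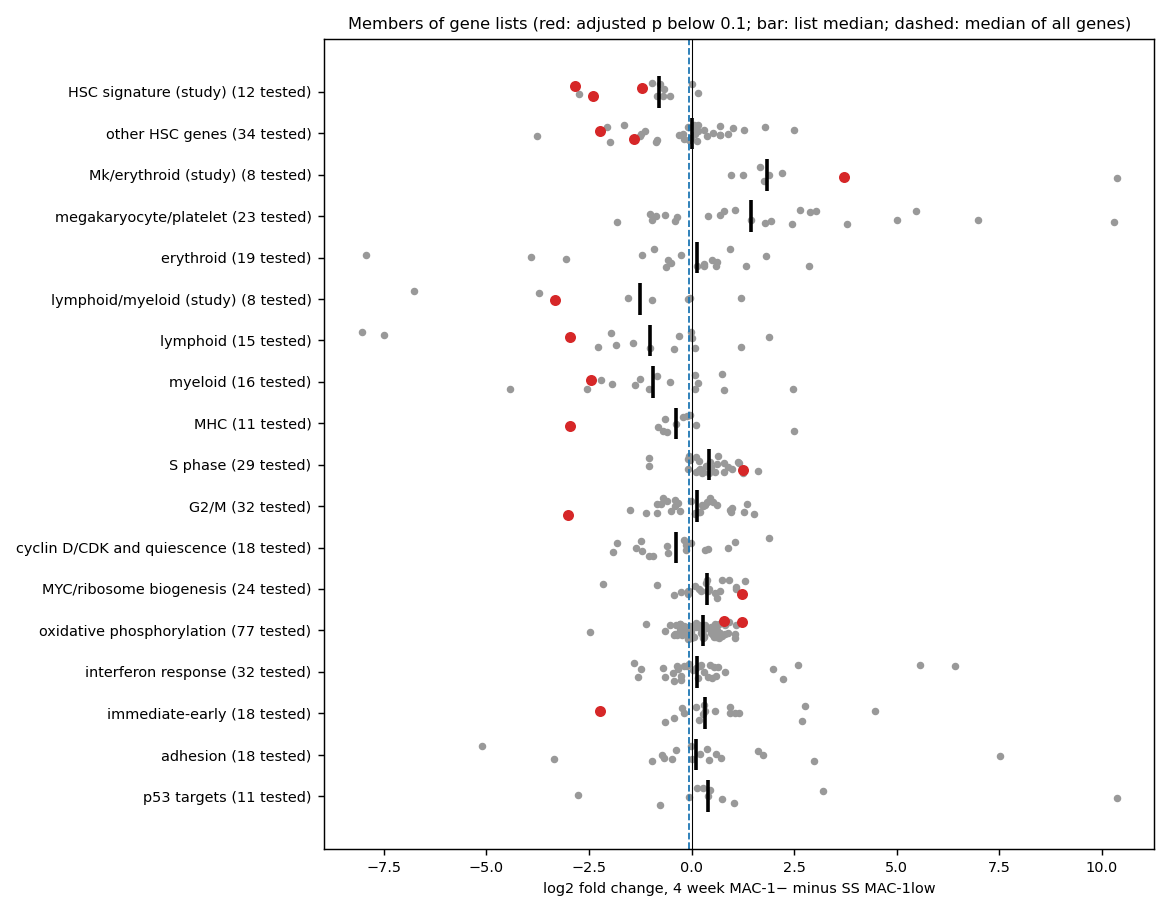
Log2 fold change (4 week MAC-1- minus SS MAC-1 low) of every tested member of 18 gene lists. Red points have an edgeR adjusted p below 0.1, black bars are list medians and the dashed line is the median of all genes tested, −0.0705. Medians run from −1.25 for the lymphoid/myeloid list, to which *Ikzf2* was added, to 1.83 for the megakaryocytic/erythroid genes of the study.

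The expression of cell cycle genes bears on the description of each population as the more cycling sort of its state. The pair was chosen with earlier results of these data known, so these levels describe it and are not independent evidence. The summed level of 29 S phase genes was 4090 to 4730 CPM in 4 week MAC-1- and 2770 to 3360 CPM in SS MAC-1 low samples, against 2050 to 2799 CPM in SS MAC-1- (overlapping SS MAC-1 low) and 1908 to 2448 CPM in 4 week MAC-1+ samples. For 32 G2/M genes the sums were 2800 to 2980 CPM and 1830 to 3580 CPM, against 926.3 to 1480 and 1470 to 2205 CPM. The highest G2/M sum was that of SS MAC-1 low replicate 2, which also had the lowest mitochondrial share. The S phase sums of the MAC-1 low samples at 4 weeks, 2923 to 3315 CPM, lay within the range of SS MAC-1 low and below every 4 week MAC-1- sample. Their G2/M sums, 2225 to 2947 CPM, overlapped both groups.

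Of the 29 S phase genes 1 was called, *Tipin*, which rose. On the adjusted p alone 0.271% of all genes were called higher. The median of the list was 0.424, and 7 (24.1%, against 9.57% of all genes) were without overlap on the higher side and 0 on the lower. *Tipin*, which stabilizes replication forks, had 974, 871 and 880 against 244, 442 and 464 CPM (log2 fold change 1.24 ± 0.27 SE, edgeR adjusted p = 0.0832). Of the 32 G2/M genes 1 was called lower, against 0.234% of all genes. This was *Kif23*, a kinesin of cytokinesis. It had 14.5, 3.41 and 10.3 against 49.7, 126 and 53.5 CPM (log2 fold change −3.02 ± 0.62 SE, edgeR adjusted p = 0.0640), while the median of that list was 0.135. *Mki67*, the proliferation marker, had 346, 251 and 145 CPM in 4 week MAC-1- and 165, 385 and 155 CPM in SS MAC-1 low samples, with overlapping groups (log2 fold change 0.07 ± 0.41 SE, edgeR adjusted p = 0.990). *Cdk6*, a kinase of entry into the cycle, had 288, 288 and 228 against 170, 282 and 153 CPM (log2 fold change 0.41 ± 0.32 SE, edgeR adjusted p = 0.759). In 18 genes of cyclin D, CDK inhibitors and quiescence 0 were called by edgeR, with 1 at an unadjusted p below 0.05, and the median was −0.388. Over all genes tested, 0.505% were called on the adjusted p alone and 9.93% had an unadjusted p below 0.05.

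Other called genes work on DNA. *Orc4*, a subunit of the origin recognition complex, had 532, 392 and 523 against 256, 136 and 177 CPM (log2 fold change 1.34 ± 0.30 SE, edgeR adjusted p = 0.0959). *Rpa3*, a subunit of the single-strand DNA-binding complex, had 1105, 1059 and 721 against 614, 363 and 458 CPM (log2 fold change 1.01 ± 0.22 SE, edgeR adjusted p = 0.0896). The histone gene *Hist1h2bc* (ENSMUSG00000018102, chromosome 13, 23684199 to 23692908) had 195, 187 and 268 CPM in 4 week MAC-1- and 42.3, 52.2 and 67.8 CPM in SS MAC-1 low samples (log2 fold change 2.00 ± 0.27 SE, edgeR adjusted p = 0.00578). It was low in SS MAC-1 low HSCs only, with means of 176 CPM in SS MAC-1- HSCs and, at 4 weeks, 210 and 173 CPM in MAC-1 low and MAC-1+ HSCs. *Orc4* overlaps *Acvr2a* and *Mbd5* on the other strand. *Tipin*, *Orc4*, *Rpa3* and *Kif23* lost their calls in 13, 13, 12 and 6 of the 16 fits that left out 1 sample, up to an edgeR adjusted p of 0.310, 0.401, 0.393 and 0.283.

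The lists of ribosome and respiration genes had positive medians and few calls. Of all genes tested, 0.271% were called higher on the adjusted p alone. Of 24 genes of MYC and ribosome biogenesis 1 was called, *Npm1* (nucleophosmin), which rose. It had 5219, 4987 and 4484 against 2554, 1712 and 2027 CPM (log2 fold change 1.22 ± 0.26 SE, edgeR adjusted p = 0.0832). The list had a median of 0.378 and sums of 7270 to 8040 against 4190 to 4430 CPM. *Npm1* alone took most of the sum in every 4 week MAC-1- sample, so the sums mainly follow this gene. Of 82 genes of oxidative phosphorylation 77 were tested and 2 were called, both higher, against 0.271% of all genes, and the median was 0.286. Without overlap were 31 (40.3%, against 9.57% of all genes) on the higher side and 5 (6.49%, against 8.1%) on the lower. Their sums were 46200 to 55700 CPM in 4 week MAC-1- and 36800 to 40500 CPM in SS MAC-1 low samples. *Uqcrb*, a subunit of complex III, had 3413, 3836 and 2962 against 1860, 1182 and 1327 CPM (log2 fold change 1.22 ± 0.26 SE, edgeR adjusted p = 0.0832). *Ndufa1*, a subunit of complex I, had 1199, 1152 and 935 against 620, 574 and 704 CPM (log2 fold change 0.79 ± 0.15 SE, edgeR adjusted p = 0.0515), under the threshold on the fold change. *Usmg5*, a small subunit of the ATP synthase, was called at 1.06 (edgeR adjusted p = 0.0640). The share of mitochondrially encoded reads, given above, was also higher in each 4 week MAC-1- sample. *Npm1* and *Uqcrb* each lost the call in 10 of 16 fits that left out 1 sample, with an edgeR adjusted p of 0.379 for both without SS MAC-1 low replicate 2.

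Among the remaining lists, 0 of 32 interferon genes (5 at an unadjusted p below 0.05, median 0.135), 0 of 18 adhesion genes (3, median 0.108) and 0 of 11 p53 targets (2, median 0.396) were called by edgeR. Over all genes tested, 0.505% were called on the adjusted p alone and 9.93% had an unadjusted p below 0.05. *Ifitm1* was counted with the HSC genes and is not in the interferon list. Of 18 immediate-early genes tested, *Dusp2*, a phosphatase that restrains MAP kinases, was called, and it fell, while 0.234% of all genes were called lower. The list had a median of 0.322 with 13 positive and 5 negative. Without overlap were 6 (33.3%, against 9.57% of all genes) on the higher side and 2 (11.1%, against 8.1%) on the lower. *Dusp2* had 22.2, 25.6 and 19.7 against 147, 93.5 and 74.7 CPM (log2 fold change −2.22 ± 0.49 SE, edgeR adjusted p = 0.0896), while *Fos* had 858, 1131 and 854 against 837, 761 and 687 CPM (log2 fold change 0.32, edgeR adjusted p = 0.539). The call of *Dusp2* was lost in 10 of the fits that left out 1 sample.

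Genes of other functions completed the calls. RP23-329A21.3 (ENSMUSG00000107061, Gm19590 in GENCODE, chromosome 5, 75833035 to 75835645), a long noncoding RNA gene on the chromosome that also carries *Kit*, had 148, 200 and 120 CPM in 4 week MAC-1- and 705, 534 and 547 CPM in SS MAC-1 low samples (log2 fold change −1.93 ± 0.22 SE, edgeR adjusted p = 8.63e-04). *Malat1*, an abundant nuclear RNA, had 1802, 1430 and 2046 against 3641, 6619 and 6165 CPM (log2 fold change −1.64 ± 0.32 SE, edgeR adjusted p = 0.0561). Both glutathione transferase genes that were called fell, *Mgst1* (log2 fold change −1.79, edgeR adjusted p = 0.0346) and *Gstm1* (−1.61, edgeR adjusted p = 0.0338). *Mgst1* had 33.6, 37.6 and 44.2 against 117, 129 and 152 CPM, and *Gstm1* 88.9, 98.6 and 87.6 against 279, 248 and 314 CPM. *Ldhb*, a lactate dehydrogenase subunit (−1.999), *Ramp1*, a subunit of the receptor for the neuropeptide CGRP (−1.24), *Arid4a* (−2.01), *Ypel3* (−1.68), *Zfp467* (−1.88), *Pqlc3* (−2.10), *Otos* (−2.21) and the pseudogene *Gm2830* (−1.74) were called lower with edgeR adjusted p from 0.0205 to 0.0977.

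On the higher side stood the stress genes *Hspa1b*, which encodes the heat shock protein HSP70, and *Mt1*, a metallothionein. *Hspa1b* had 353, 369 and 204 against 46.4, 39.0 and 30.7 CPM (log2 fold change 3.00 ± 0.65 SE, edgeR adjusted p = 0.0832), and its reads are shared with the near-identical *Hspa1a*, so its level is uncertain. *Mt1* had 276, 174 and 240 against 29.5, 41.9 and 70.1 CPM (log2 fold change 2.28 ± 0.51 SE, edgeR adjusted p = 0.0962). Genes of protein synthesis were *Gspt1*, a translation termination factor, with 269, 280 and 241 against 36.2, 44.9 and 43.1 CPM (log2 fold change 2.67 ± 0.46 SE, edgeR adjusted p = 0.0338), *Pdcd4*, an inhibitor of translation initiation (1.85), and *Ssr1* of the translocon (1.45). *Plac8*, *Oxct1*, *Adss*, *Tex30*, *Shcbp1* and *Gm13157* had log2 fold changes from 1.27 to 1.99, with edgeR adjusted p from 0.0359 to 0.0896.

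4 calls rested on a group at or near 0. *Fam184a* had 0 counts in all 4 week MAC-1- samples and 14, 13.5 and 49.7 CPM in SS MAC-1 low samples, which is at least 160-fold lower against a limit of 3 counts per library. *Fxyd1* had 0 counts against 28.3, 6.15 and 5.62 CPM, at least 82.9-fold lower. *Slc16a12* had 1 count against 1296, a ratio of 1350 (95% counting interval 242 to 53400). *Yipf3* went the other way, with 30.5, 16.6 and 20.8 CPM in 4 week MAC-1- and 0.209, 0 and 0.412 CPM in SS MAC-1 low samples, while the means were 17.0 CPM in SS MAC-1- HSCs and, at 4 weeks, 15.2 and 19.8 CPM in MAC-1 low and MAC-1+ HSCs. The edgeR adjusted p of these 4 genes were 0.0640, 0.0640, 0.0896 and 0.0356, and without 4 week MAC-1- replicate 1 they were 0.272, 0.272, 0.398 and 0.152.

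**Figure D4:**
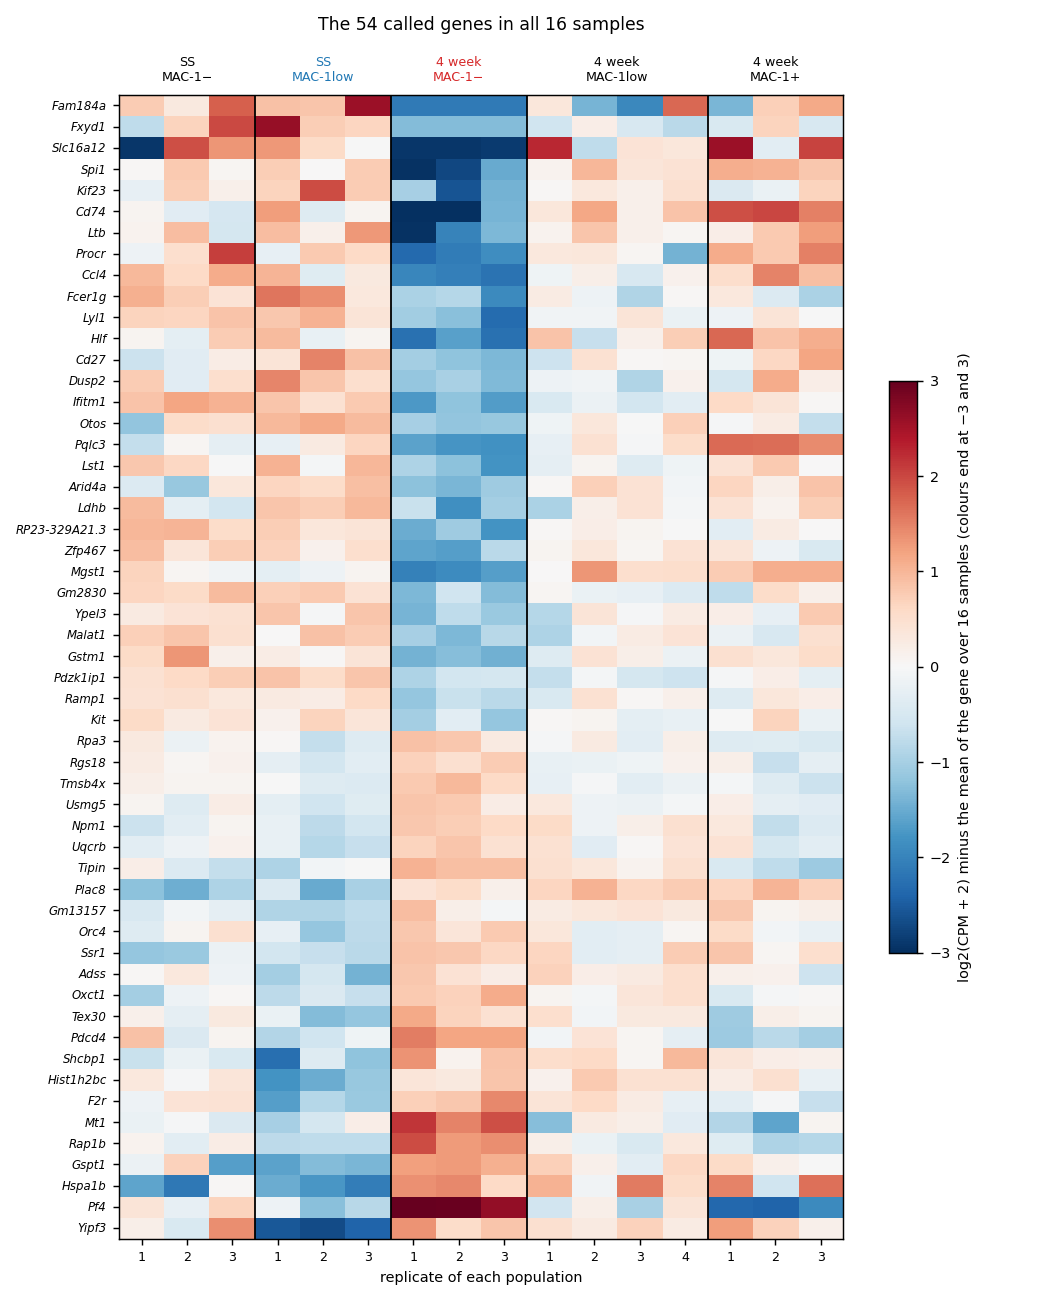
The 54 called genes (rows, ordered by log2 fold change) in all 16 samples (columns, grouped by population). Colour is log2(CPM + 2) minus the mean of the gene over 16 samples. The 30 lower genes form a mostly blue and the 24 higher genes a mostly red block in the 4 week MAC-1- columns, and *Plac8* is red in every 4 week column.

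Beside the main comparison, 4 neighbouring comparisons in the same model change the state alone or the gate alone. They share samples with it and with each other, so their values are only set side by side. On the adjusted p alone edgeR called 59 genes (0.432%) for MAC-1- HSCs at 4 weeks against those in SS and 6 (0.0439%) for MAC-1 low HSCs in the same way. It called 38 (0.278%) for MAC-1- against MAC-1 low HSCs within 4 weeks and 2 (0.0146%) within SS. For 8 genes (0.0586%) the difference between the gates itself differed between 4 weeks and SS. *Pf4* had a log2 fold change of 2.71 against SS MAC-1- (edgeR adjusted p = 0.00678) and 3.19 against MAC-1 low HSCs at 4 weeks (0.00216), and within the MAC-1 low gate 4 week HSCs differed from SS HSCs by 0.53 (0.711). For *Rap1b* these values were 1.55 (0.0107), 1.58 (0.00848) and 0.77 (0.336), for *Hlf* −2.30 (0.0529), −2.43 (0.0327) and 0.02 (0.999), and for *Spi1* −3.12 (0.0672), −3.31 (0.0529) and −0.03 (0.999), in the same order and all from edgeR. So for these 4 genes the 4 week MAC-1- population differed from both SS MAC-1- HSCs and MAC-1 low HSCs 4 weeks after transplantation as well.

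Other genes had a different profile. *Ifitm1* passed in all 3 comparisons, in the same order with −2.55, −1.15 and −1.07 on the log2 scale (edgeR adjusted p = 7.81e-06, 0.0111 and 0.0295). *Pdzk1ip1* was lower at 4 weeks in both MAC-1- (−1.26, edgeR adjusted p = 0.0212) and MAC-1 low HSCs (−1.21, 0.0318), and at 4 weeks the MAC-1- and MAC-1 low gates differed by −0.20 (1.0). *Plac8* was higher at 4 weeks in MAC-1- (1.57, edgeR adjusted p = 0.0142) and in MAC-1 low HSCs (1.67, 0.0235). *Procr* was lower than in SS MAC-1- HSCs (−3.53, edgeR adjusted p = 0.05003) and did not pass against 4 week MAC-1 low (−2.33, 0.249). *Hist1h2bc* did not pass between 4 week MAC-1- and SS MAC-1- HSCs (0.30, edgeR adjusted p = 0.777) and passed between the MAC-1 low populations (1.96, 0.0235).

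Markers of other cells that the gate could have let in were read as whole lists. Summed neutrophil markers (10 genes) were 23.1 to 69.3 CPM in 4 week MAC-1- and 131 to 168 CPM in SS MAC-1 low samples, and 4 of the 5 tested, led by *S100a8*, were without overlap on the lower side (80%, against 8.1% of all genes). This moved with the lower myeloid genes, and its part in them was not tested. Monocyte (9 genes, 1.03 to 14.4 against 0.224 to 34.2 CPM), B cell (8 genes, 10.3 to 35.7 against 7.27 to 170 CPM) and erythroblast markers (7 genes, 12 to 19.1 against 18.5 to 48.9 CPM) overlapped between the groups. Mast cell and basophil markers (7 genes) summed to 37.6 to 85.6 against 0.0522 to 19.6 CPM, led by *Cpa3*. Of these 7 genes, 4 were at 0 throughout 4 week MAC-1- and 4 throughout SS MAC-1 low samples, with 2 at 0 in all 6 samples. T and NK cell markers (9 genes) summed to 323 to 644 against 210 to 242 CPM, nearly all of it *Nkg7*. Markers of endothelium and stroma (6 genes) summed to 9.02 to 13.5 against 3.56 to 7.98 CPM. The part of these 3 lists, whose sums were higher in every 4 week MAC-1- sample, in the higher genes was not tested. None of the tested members of these lists was called by edgeR, with 3 of their 18 at an unadjusted p below 0.05. Over all genes tested, 0.505% were called on the adjusted p alone and 9.93% had an unadjusted p below 0.05. The MAC-1 transcripts themselves were rare, with *Itgam* at 0, 1.78 and 0 CPM in 4 week MAC-1- and 1.56, 0.895 and 0.773 CPM in SS MAC-1 low samples, and *Itgb2* at 31.4, 18.8 and 30.2 against 36.2, 1.01 and 22.9 CPM, with overlap in both.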

How the data were processed

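RNA was sequenced from MAC-1-sorted HSCs in 16 samples of 5 populations, grouped by the sample labels, and 6 samples form the comparison. The authors deposited 1 table of raw counts, whole reads per gene, from nf-core's RNA-seq pipeline (version 1.4.2) with STAR alignment. Which counter, build and annotation they used is not given in the sources used here. Copies made by SMART-Seq carry no molecular identifiers, so amplification copies are counted as reads. All 46078 genes have an identifier, 214 symbols stand on several lines and were kept apart by Ensembl identifier, and 98.0% of identifiers are in GENCODE M21 (GRCm38), the source of positions.

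edgeR 4.0.16 in R 4.3.3 (TMM, default filter on low counts, robust quasi-likelihood fit) was run in 1 model over the 16 samples with a mean per population, so that the groups share 1 estimate of the spread. The comparison is a contrast in it, adjusted over the 13661 genes tested. CPM use the TMM factors. Where a library had 0 counts, 3 counts were used as its limit, between 0.114 and 0.188 CPM in these 6 samples. Values per sample were compared with a two-sided exact permutation test. Alternatives were DESeq2 1.42.0, limma 3.58.1 (voom with sample weights), DESeq2 size factors, no or a stricter filter (at least 50 counts in at least 3 samples), only the 6 samples, the replicate number as a block, a threshold of 0.05, and leaving out each sample. The tests were first tried on simulated counts with known changes, planted only in genes above a floor on the mean count. At an adjusted p below 0.1 edgeR recovered 24.2% of 91 genes changed by 2 on the log2 scale and 42.2% of 109 changed by 3, with 5 false calls. DESeq2 recovered 40.7% and 71.6% with 230 false calls, and limma-voom 16.5% and 33% with 11. A gene that was not called can thus still differ between the groups. Recovery of genes with lower counts was not simulated.

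Named genes are all called genes, the genes the study names for HSC identity and lineage, *Ikzf2*, both MAC-1 subunits, *Mki67* and *Cdk6*. For other lists they are the called members or up to 4 of the highest level. The members and lists were chosen with earlier results of these data known. No set test was run. Some genes of the lists are counted in them and not reported here by name. Plots used Python 3.11.15 with matplotlib 3.10.9.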

Additional observations from a re-analysis of the deposited data

Results flagged for a closer look

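For 5 of the genes named, the difference between MAC-1 low and MAC-1- HSCs was not the same at 4 weeks as in SS, by a test of the difference itself (edgeR, interaction in the model of 16 samples, adjusted over all genes tested). Over all genes tested, 8 (0.0586%) passed. The values below are the difference at 4 weeks minus the difference in SS, on the log2 scale.

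*Ccl4* differed by 2.58 (edgeR adjusted p = 0.0984), with means of 31.6 CPM in 4 week MAC-1-, 135 CPM in 4 week MAC-1 low, 265 CPM in SS MAC-1- and 189 CPM in SS MAC-1 low HSCs. *Ifitm1* differed by 1.48 (edgeR adjusted p = 0.0583), with means of 793, 1765, 4646 and 3698 CPM in the same order. RP23-329A21.3 differed by 1.87 (edgeR adjusted p = 0.0583), with means of 156, 444, 768.5 and 595 CPM. *Mgst1* differed by 2.95 (edgeR adjusted p = 0.0583), with means of 38.5, 230, 171 and 133 CPM. In these 4 genes the mean was higher in MAC-1 low than in MAC-1- HSCs at 4 weeks and lower in SS. The same held for *Fos*, an immediate-early transcription factor that was not called in the main comparison, which differed by 1.396 (edgeR adjusted p = 0.0583), with means of 948, 1541, 1233 and 762 CPM.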

How the results depend on the processing

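All 54 called genes kept their sign under all 8 alternatives and in the 16 fits that each left out 1 sample. The count of 54 (24 higher, 30 lower) was 789 with DESeq2 (365 and 424; 52 of the 54 shared), 205 with limma-voom (107 and 98; 51 shared), 92 without a filter on low counts (49 and 43), 27 in a model of only the 6 samples (21 and 6; 15 shared) and 19 at an adjusted p below 0.05 (9 and 10). With 1 sample left out it ran from 10 to 65 (5 to 33 higher, 5 to 35 lower), and it was 34 without 4 week MAC-1 low replicate 4. It was 19, 23 and 33 when replicate 1, 2 or 3 of SS MAC-1 low was left out, and 10, 14 and 27 for those of 4 week MAC-1-. Called members over all lists were 16, with 64 in DESeq2, 33 in limma-voom, 5 with only the 6 samples, 5 at an adjusted p below 0.05 and 3 to 22 with 1 sample left out. The study's HSC list had 3, against 6 in DESeq2, 0 with only the 6 samples, 1 at an adjusted p below 0.05 and 0 to 2 with 1 sample left out. The lymphoid/myeloid list, with *Ikzf2*, had 1, against 2, 0, 0 and 0 to 1. The study's megakaryocytic/erythroid list had 1, against 3 in DESeq2 and 2 in limma-voom. The cause of these shifts was not tested.

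With the replicate number as a block, 42 genes were called (21 higher, 21 lower), 34 of them among the 54. Same-numbered samples did not deviate together (correlation across genes of their deviations from the group means 0.0178, −0.0184 and 0.00806), so the numbers are taken as names only and the block says nothing about the strength of an effect.

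Among the genes reported here by name, 6 with differences near 0 or wide errors changed sign, none of them called. Some genes chosen for the lists but not reported by name changed sign too. *Socs2* was −0.0308 with DESeq2 size factors, −0.0292 with DESeq2, −0.0291 with a stricter filter, −0.0170 without a filter and −0.43 to 0.27 with 1 sample left out, and *Notch2* was 0.0711 with limma-voom and −0.30 to 0.23 with 1 sample left out. With 1 sample left out, *Mki67* ran from −0.25 to 0.58, *Ikzf1* from −0.68 to 0.25, *Glipr1l1* from −0.0932 to 0.38 and *Itgb2* from −0.18 to 1.13. Depth limits the genes of a few CPM most, since 3 counts are up to 0.188 CPM in these samples.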
